A study of Mus musculus with 2 samples.

Results

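RNase P and RNase MRP are ribonucleoprotein enzymes in which an RNA is joined by a largely shared set of proteins. Their genes were taken as every gene row named Rpph1, Rmrp, Pop1, Pop4, Pop5, Pop7, Rpp14, Rpp25, Rpp30 or Rpp38 in the GENCODE M21 annotation of mouse build mm10. These 10 names gave 11 of 55536 gene rows and 32 of 141767 transcript models, because Rmrp has 2 rows. The rule uses gene names and no measured value, although the set was proposed with earlier results of these data known.

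Both libraries came from macrophages grown from bone marrow of C57BL/6J mice as primary cells, and both had received Lipid A, the part of lipopolysaccharide that TLR4 recognises, at 100 ng/ml for 40 min. Total RNA of the nucleoplasmic fraction, labelled as the nucleus, was sequenced after ribosomal RNA had been depleted, with a size range of 250 to 400. There was 1 group with biological replicates 1 and 2. Their donor identifier is the same, and the spread over separate animals may be wider than the one seen here. Replicate 1 was made from 1 µg of RNA and replicate 2 from 500 ng, so a difference by replicate cannot be told apart from one by RNA input. Sex and age were not recorded, and no untreated library or other fraction was analysed here. All values are therefore levels in stimulated cells and not responses, and no test between conditions was possible. In bulk RNA, fewer cells of a type and less RNA per cell cannot be told apart.

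RNase P removes the leader of precursor tRNAs, and RNase MRP cuts the precursor of ribosomal RNA. In both enzymes the RNA, Rpph1 or Rmrp, forms the catalytic core, and RNA polymerase III transcribes both RNAs from promoters upstream of the transcribed part. The proteins are made from ordinary mRNAs, and most of them sit in both enzymes.

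Expected counts, the authors' estimates of fragments per gene from an alignment to the transcriptome, summed to 19630046 in replicate 1 and 18434601 in replicate 2. TPM (transcript abundance as parts of a fixed library total) divides these counts by the effective length, which is the model length less about 1 fragment. Levels below are TPM as mean ± SD (n = 2) unless a count is named. All 6 macrophage markers listed were detected, meaning that each replicate had 1 TPM or more, with means between 33.6 TPM for Itgam and 1542 TPM for Lyz2. None of 7 markers of other cells was detected by these values, and Cd3e, Elane and Hbb-bs had 0 counts in both replicates. S100a9, a neutrophil marker, had 1.34 TPM in replicate 1 and 0.87 TPM in replicate 2, from 9 and 7 counts. Pecam1, an endothelial marker, had 0.56 and 0.50 TPM here, but 2.58 and 5.24 TPM in the tables that the authors derived from the FASTQ files. Malat1, a nuclear RNA, averaged 24466 ± 3364 TPM, and the mitochondrial mRNA mt-Co1 averaged 11089 ± 3862 TPM.

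The RNA of each enzyme is shown because these short RNAs carry most of the signal and because the Rmrp rows differ only at their ends. Sequences are the annotated GENCODE M21 models on mm10, written with T for U. Rpph1-201, at chr14:50807449-50807767 on the minus strand, is a single exon of 319 nt, of which bases 1 to 300 are printed (chr14:50807468-50807767). Its capitals mark an exact stretch shared with Rmrp, 9 bases that begin at base 17. No longer stretch is shared, but GCAGTGCGA, left in lower case, is as long. Rmrp-202, at chr4:43492783-43493063 on the minus strand, is a single exon of 281 nt of the gene row of class lincRNA. Its capitals mark the 5 bases at each end that the ribozyme row lacks. The lower-case part between them is Rmrp-201, the 271 nt model of the ribozyme row at chr4:43492788-43493058.
Rpph1-201, bases 1 to 300: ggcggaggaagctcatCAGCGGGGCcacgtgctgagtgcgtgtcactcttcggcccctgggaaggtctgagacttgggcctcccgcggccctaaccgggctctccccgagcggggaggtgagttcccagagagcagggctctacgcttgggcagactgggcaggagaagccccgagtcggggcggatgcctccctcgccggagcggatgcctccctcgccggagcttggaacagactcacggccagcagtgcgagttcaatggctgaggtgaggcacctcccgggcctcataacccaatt
Rmrp-202: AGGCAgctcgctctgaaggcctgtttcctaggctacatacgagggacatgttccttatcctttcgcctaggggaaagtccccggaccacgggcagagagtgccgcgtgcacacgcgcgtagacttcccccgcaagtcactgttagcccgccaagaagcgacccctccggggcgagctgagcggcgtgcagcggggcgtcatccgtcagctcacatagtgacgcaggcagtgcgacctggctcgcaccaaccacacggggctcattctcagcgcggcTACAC
A global alignment of Rpph1-201 with Rmrp-201 had 161 identical bases over 329 columns (48.9%). The marked stretch CAGCGGGGC began at base 183 of Rmrp-201, which is base 188 of Rmrp-202. The GC content was 67.1% for Rpph1-201 and 63.7% for Rmrp-202.

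The mean TPM of Rpph1 and of the main Rmrp row exceeded that of every protein-coding gene, and both levels differed widely between the replicates. Rpph1 (ENSMUSG00000092837.1), the RNA of RNase P, had 36274 TPM in replicate 1 and 117607 TPM in replicate 2, from 92143 and 323271 counts. Its mean was 76940 ± 57511 TPM. Replicate 2 was the higher library, and the SD was large beside the mean. The effective length of Rpph1 was 118 bases in replicate 1 and 95.9 in replicate 2, so TPM divides its counts by less than the full 319 nt.

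Rmrp, the RNA of RNase MRP, was split over 2 gene rows that share all 271 bases of the shorter one. The ribozyme row (ENSMUSG00000088088.1) had 39927 TPM in replicate 1 and 79482 TPM in replicate 2, with a mean of 59704 ± 27969 TPM. The lincRNA row (ENSMUSG00000115420.1) went the other way, with 22033 TPM in replicate 1 and 5609 TPM in replicate 2, and a mean of 13821 ± 11614 TPM. Replicate 2 was higher for the ribozyme row and lower for the lincRNA row. Summed over both rows, Rmrp had 61960 and 85090 TPM in replicates 1 and 2, or 73525 ± 16355 TPM. The sum had a smaller SD than the ribozyme row alone, at a higher level.

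The ribozyme row took 64.4% of the Rmrp TPM in replicate 1 and 93.4% in replicate 2, a mean of 78.9% ± 20.5. By counts, the lincRNA row held 38.0% (37.7% to 38.3%, exact binomial 95% interval) of 105224 Rmrp fragments in replicate 1. In replicate 2 it held 7.40% (7.26% to 7.54%) of 140249. These intervals do not overlap. They cover counting error only, as do all intervals and limits given here, because reads counted without molecular identifiers may be copies of 1 molecule. In the FASTQ-derived table, a further estimate by the authors that skips this alignment, the lincRNA row held 46.2% of Rmrp counts in replicate 1 and 7.28% in replicate 2. Only fragments that reach the 5 extra bases at an end are particular to the lincRNA row, so the assignment of fragments between the rows is uncertain, and their sum is the firmer value.

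**Figure D1:**
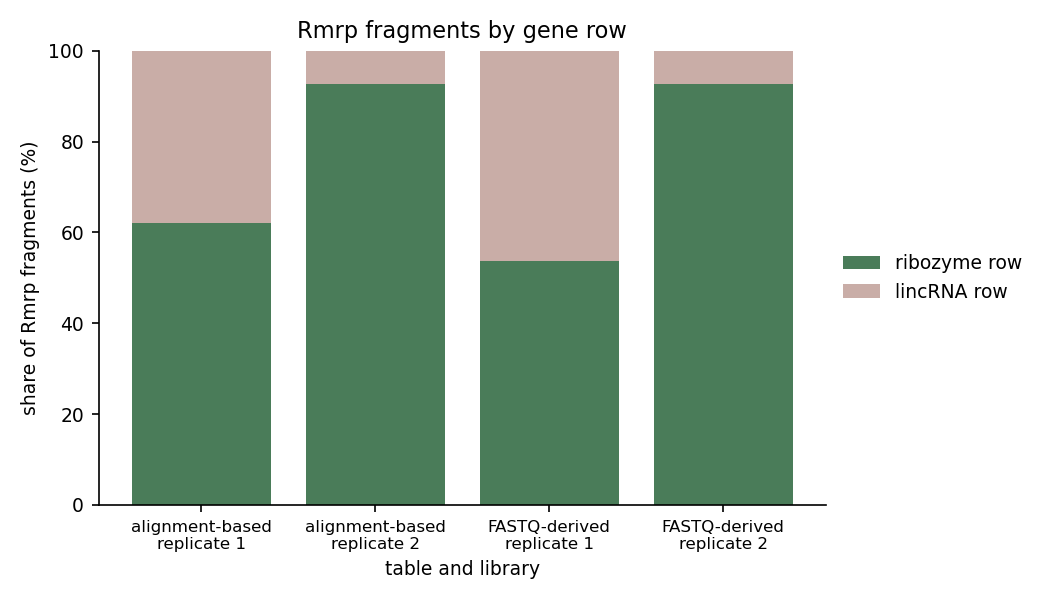
Share of Rmrp fragments, in percent, assigned to the ribozyme row and to the lincRNA row, for each replicate in the alignment-based and the FASTQ-derived tables. The lincRNA row holds 38.0% and 46.2% in replicate 1, and 7.40% and 7.28% in replicate 2.

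The order of Rpph1 and Rmrp changed between the libraries. Rpph1 had 0.585 times the TPM of Rmrp with both rows summed in replicate 1, and 1.38 times in replicate 2. On the log2 scale the ratio was -0.77 in replicate 1 and 0.47 in replicate 2, or -0.15 ± 0.88. Neither RNA was thus higher beyond the spread between replicates. By FASTQ-derived TPM the same ratio was 0.674 in replicate 1 and 1.45 in replicate 2.

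Together Rpph1 and Rmrp made up 9.82% of all TPM in replicate 1 and 20.3% in replicate 2. Their share of all expected counts was 1.01% and 2.52%, so the division by a short effective length raises their share of TPM. In the FASTQ-derived tables they held 2.65% and 7.88% of all TPM. Fragments averaged 206 nt in replicate 1, and 230 nt in replicate 2, as length minus effective length of long alignment-based models shows. The same measure in the FASTQ-derived tables gave 164 nt in replicate 1 and 236 nt in replicate 2, a wider gap. The part of fragment length in the level of these short RNAs was not tested.

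Few other rows of the annotated ribozyme class had counts. Of 20 other ribozyme genes, 18 had 0 counts in both replicates, among them Rprl1, Rprl2 and Rprl3, which are further loci annotated by their likeness to the RNase P RNA. Gm26464 had 10 counts in each replicate, and Gm25694 had 3 in replicate 1 and 0 in replicate 2.

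The proteins formed a separate and far lower tier. The 8 protein genes together had 305 counts in replicate 1 and 235 in replicate 2, and their TPM summed to 11.3 and 8.84. Their median was 1.35 TPM in replicate 1 and 1.03 TPM in replicate 2, a mean of 1.19 ± 0.23. On the scale of log2(TPM + 1), the RNAs lay 14.95 ± 0.91 above the median protein gene. The lowest value of an RNA row in either library was 5609 TPM, and the highest value of a protein gene was 2.62 TPM.

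**Figure D2:**
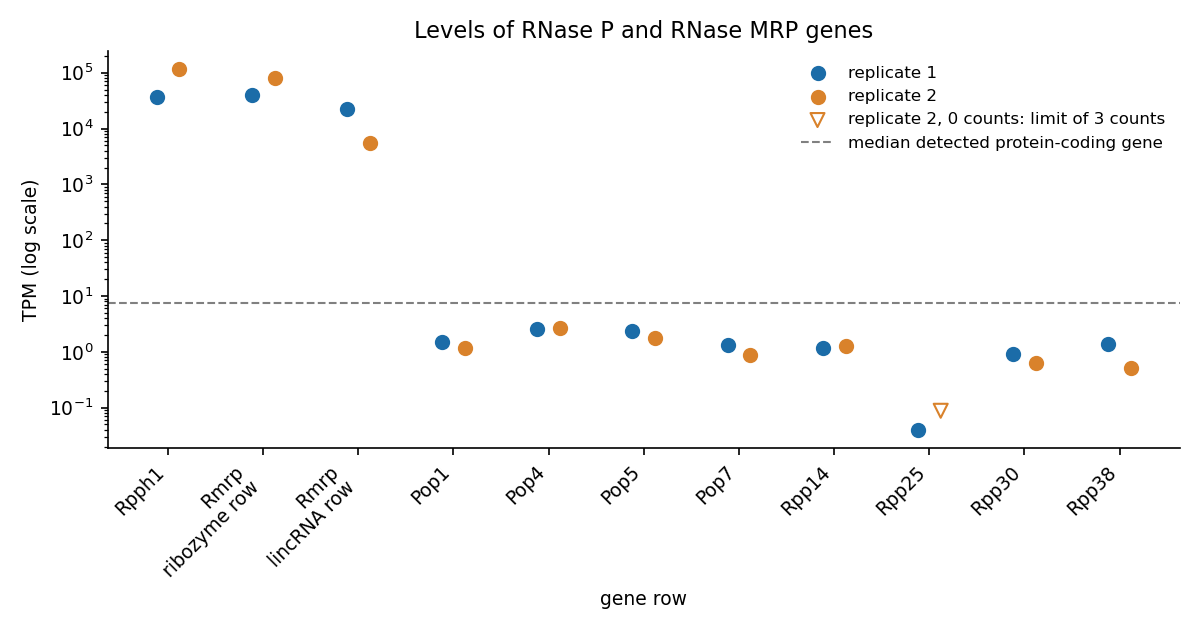
TPM of each of the 11 gene rows on a log axis, with 1 point per replicate and a dashed line at 7.38 TPM, the mean over replicates of the median detected protein-coding gene. The 3 RNA rows lie between 5609 and 117607 TPM and all protein rows at or below 2.62 TPM. The open triangle is the limit of 3 counts for Rpp25 in replicate 2, where it had 0 counts.

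Of the 8 protein genes, 4 were detected (Pop1, Pop4, Pop5 and Rpp14), beside 40.0% of all 22028 protein-coding genes. These calls use the TPM summed over all models of a gene. The model with the most counts had 1.07 and 0.61 TPM for Pop1 and 1.65 and 0.62 TPM for Pop4. For Pop5 it had 1.24 and 0.67 TPM, and for Rpp14 0.56 and 0.33 TPM. In replicate 2 each call thus depends on further models with few counts. By posterior mean TPM, a further estimate by the authors from the same alignment, Rpp30 also passed, at 1.39 and 1.19. None of the 8 reached the median detected protein-coding gene, which had 8.64 TPM in replicate 1 and 6.12 TPM in replicate 2. Their percentiles among all protein-coding genes ran from 37.2 for Rpp25 to 67.1 for Pop4. Over all classes 7 of the 11 member rows were detected, beside 19.4% of all gene rows.

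Pop1 (ENSMUSG00000022325.14, chr15:34495304-34530648, plus strand), the largest protein of both enzymes, had 1.51 and 1.17 TPM in replicates 1 and 2. These rest on 85 and 66 counts, and the mean was 1.34 ± 0.24 TPM. Its model Pop1-202 held 83.1% of its counts in replicate 1 and 81.2% in replicate 2. By TPM that share was 70.9% and 52.6%. In replicate 2 the retained intron model Pop1-205 had 0.46 TPM from 3.87 counts. By the alignment-based values Pop1 had the most counts of the 8, but its long models place it below Pop4 and Pop5 per length.

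Pop4 (ENSMUSG00000030423.7, chr7:38261996-38271423, minus strand), a core protein that contacts the catalytic RNA, had 2.60 and 2.62 TPM from 79 and 61 counts. By alignment-based TPM it was the highest protein gene in both replicates, at 2.61 ± 0.014 TPM. Its effective length was 1415 bases in replicate 1 and 812 in replicate 2. By FASTQ-derived TPM it had 1.17 and 1.42, below Rpp30. The models behind that level differed between the libraries. The coding model Pop4-201 held 85.6% of Pop4 counts in replicate 1 and 54.6% in replicate 2. With counts rounded, these were 68 of 79 (76.5% to 92.8%) and 33 of 61 (40.8% to 66.9%), so the exact binomial 95% intervals do not overlap. The retained intron model Pop4-205 held 9.49% in replicate 1 and 25.3% in replicate 2. Pop4 also overlaps the antisense gene Gm44767 by 12 bases, and that gene had 0 counts.

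Pop5 (ENSMUSG00000060152.14, chr5:115235836-115245351, plus strand), another core protein, had 2.40 and 1.76 TPM from 43 and 31 counts, a mean of 2.08 ± 0.45 TPM. By alignment-based TPM it was below Pop4 and above Pop1 in both replicates. By FASTQ-derived TPM it had 1.144 and 0.989, beside 1.152 and 0.779 for Pop1. The counts of Pop5 fell on Pop5-203, a model annotated for nonsense-mediated decay, with 85.5% in replicate 1 and 83.9% in replicate 2. The annotated coding model Pop5-201 had 0 counts in both replicates. Pop5-206, a model of 380 nt, had 0.26 and 0.92 TPM from 1 and 4 counts. Pop5 overlaps 3940 bases of the gene Rnf10 on the opposite strand, none of them in exons of both. That overlap holds the last exon of Pop5-203, 963 of its 1587 nt. Rnf10 had 852 and 884 counts, and the strand setting of the authors' counting is not given in the sources used here, so reads in that overlap cannot be told apart.

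Rpp30 (ENSMUSG00000024800.8, chr19:36083716-36104777, plus strand), a protein shared with the archaeal enzyme, had 0.91 and 0.64 TPM from 21 and 20 counts, a mean of 0.78 ± 0.19 TPM. It missed the detection level by this alignment-based TPM but not by posterior mean TPM, with 1.39 and 1.19. In the FASTQ-derived tables it had 2.88 and 3.81 TPM. The excess in the FASTQ-derived tables sat in 1 model. Rpp30-205, a retained intron model of 2 exons and 1871 nt, had 4 and 8 counts in the alignment-based tables and 239 and 389 in the FASTQ-derived ones. Of its 31-base words, 13.3% also occur in transcripts of other genes in the same sense and 13.6% in the opposite sense, over 1262 genes in all. No model of any other protein member shared such a word, and the level of Rpp30 is therefore uncertain.

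Rpp38 (ENSMUSG00000049950.6, chr2:3328949-3332643, minus strand), a protein of the L7Ae family that binds kinked RNA, had 1.39 TPM in replicate 1 and 0.52 TPM in replicate 2. These come from 25 and 12 counts, and the mean was 0.96 ± 0.62 TPM. It had the widest spread among the protein genes with at least 10 mean counts. The authors' credibility bounds were 0.870 to 1.91 TPM in replicate 1 and 0.271 to 0.845 TPM in replicate 2. The 95% interval of the ratio from counts alone included equality.

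Pop7 (ENSMUSG00000029715.5, chr5:137501438-137502518, minus strand) encodes the partner that pairs with Rpp25 on the RNA. It had 1.30 and 0.88 TPM from 21 and 18 counts, a mean of 1.09 ± 0.30 TPM. Rpp25 (ENSMUSG00000062309.8, chr9:57504026-57505448, plus strand) had 1 count in replicate 1, or 0.04 TPM, and 0 counts in replicate 2. A count of 0 allows up to 3 counts, which is 0.0878 TPM in replicate 2. The members of this protein pair thus differed in level, with Pop7 above Rpp25 in both libraries. Rpp25l, the paralog of Rpp25, had 0.50 TPM in replicate 1 and 0.22 TPM in replicate 2, from 7 and 4 counts.

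Rpp14 (ENSMUSG00000023156.4, chr14:8080367-8091834, plus strand), a protein related to Pop5, had 1.16 and 1.25 TPM from 30 and 27 counts, a mean of 1.21 ± 0.064 TPM. The model Rpp14-201 held 88.5% of its counts in replicate 1 and 76.0% in replicate 2. Per length most of the TPM fell on Rpp14-202, a model of 477 nt. That model held 51.3% of the TPM in replicate 1 and 73.6% in replicate 2, from 3.46 and 6.49 counts. The effective length of Rpp14 was 1208 bases in replicate 1 and 756 in replicate 2. Ordered by mean alignment-based TPM, the levels ran Pop4, Pop5, Pop1, Rpp14, Pop7, Rpp38, Rpp30 and Rpp25. By these values Pop4 lay above Pop5, Pop5 above Pop1, and Rpp30 above Rpp25 with no overlap of replicates. From Pop1 to Rpp30 each gene overlapped the next in this order. Pop1 and Rpp14 both lay above Rpp30 with no overlap of replicates. Not all of this held by posterior mean TPM. By that estimate Pop4 (3.06 and 2.91) overlapped Pop5 (3.05 and 2.34), and Rpp14 (1.28 and 1.33) overlapped Rpp30 (1.39 and 1.19). The order was not kept by FASTQ-derived TPM. There Pop1 (1.15) was level with Pop5 (1.14) in replicate 1, and Rpp30 (2.88 and 3.81) was the highest in both. The authors' credibility bounds for Pop4 and Pop5 overlapped in both replicates, at 2.28 to 3.91 and 1.93 to 4.30 TPM in replicate 1.

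Models annotated as retained intron held 14.6% of the TPM of the 8 protein genes in replicate 1 and 24.9% in replicate 2, or 19.7% ± 7.24. Over all protein-coding genes without mitochondrial ones the share was 25.0% and 24.5%, or 24.8% ± 0.32. By these values the members' share was below that of all genes in replicate 1 and slightly above it in replicate 2. By FASTQ-derived TPM it was above in both, at 46.0% and 49.9% for the members against 25.7% and 26.1% for all genes, with Rpp30-205 included. By counts the members' share was 10.9% ± 6.37, with exact binomial 95% intervals of 3.79% to 9.56% in replicate 1 and 11.0% to 20.6% in replicate 2, beside 16.9% ± 0.32. Models annotated for nonsense-mediated decay held 13.2% ± 1.14 of the members' TPM, beside 3.23% ± 0.26 over all these genes. Most of the members' part came from Pop5-203. The last exon of that model lies within Rnf10 on the opposite strand, so the members' decay share is uncertain.

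**Figure D3:**
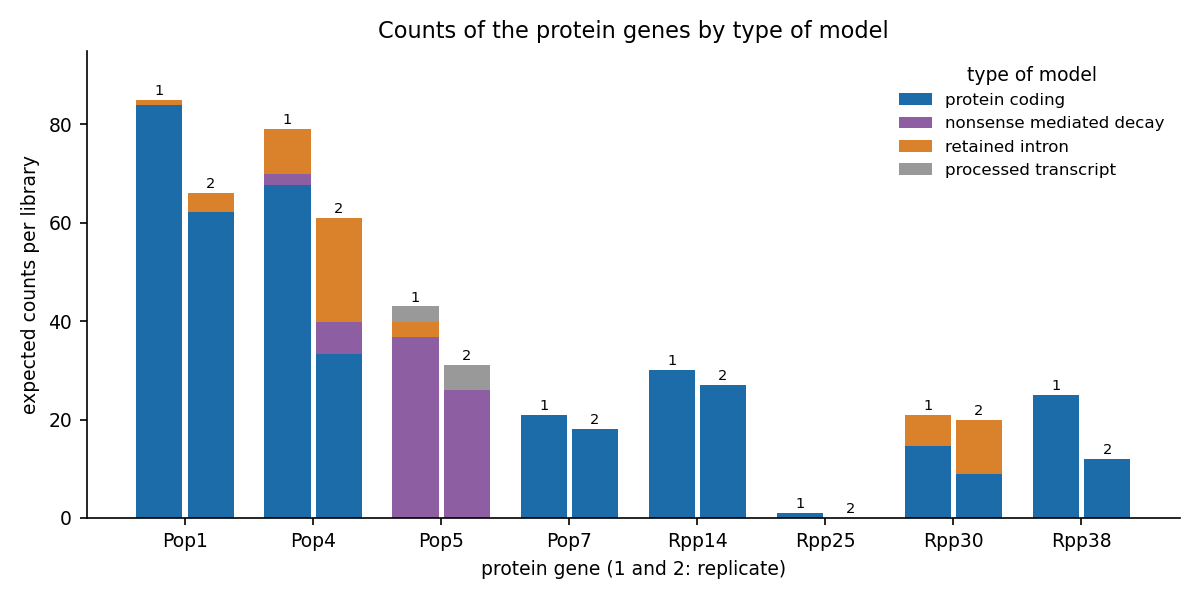
Expected counts of the 8 protein genes in replicates 1 and 2, stacked by annotated type of model. Pop1 and Pop4 have the tallest bars, Pop5 is mostly nonsense-mediated decay, and the retained intron part of Pop4 is taller in replicate 2.

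How far the replicates differed was set against all genes by the log2 ratio of replicate 1 over replicate 2. The ratio used CPM, counts scaled to library size, with trimmed-mean (TMM) scaling and a prior count of 2, for 14515 genes with a mean of at least 10 counts. It describes these libraries and has no replicate check. Of 10 member rows with enough counts, 3 were past 2-fold, beside 4.96% of all genes tested. All 3 were the RNA rows. The Rmrp rows went opposite ways, and the assignment of fragments between them is uncertain. With both rows summed Rmrp was not past 2-fold, at -0.51, which leaves Rpph1 alone.

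Rpph1 had a log2 ratio of -1.91, 3.76-fold higher in replicate 2. The Rmrp ribozyme row had -1.09, 2.13-fold higher in replicate 2. Of all genes tested, 1.75% were past 2-fold and higher in replicate 2. The lincRNA row had a ratio of 1.85, higher in replicate 1, where 3.21% of genes lay past 2-fold. With both Rmrp rows summed the ratio was -0.51, and 1.43-fold higher in replicate 2. Of 6 other RNA polymerase III products, the 3 rows with enough counts were also higher in replicate 2. Their ratios were -0.63 for Rn7sk and -0.74 for each of Rn7s1 and Rn7s2. The counts of Rn7s1 and Rn7s2 were identical in each replicate, so their ratios are not separate observations. By FASTQ-derived TPM, Rny3 (18.1 and 11.0) and Rny1 (6.77 and 2.95) were higher in replicate 1. The part of RNA input and fragment length in these ratios was not tested.

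None of the 7 protein genes with enough counts was past 2-fold, beside 7.42% of protein-coding genes with a mean of 10 to 100 counts. Their ratios ran from -0.03 for Rpp30 to 0.86 for Rpp38, and the 95% counting interval of each included 0. The median was 0.26, and 6 of the 7 were above 0. Over all genes tested the median was 0.0042, and 47.8% of protein-coding genes were above 0. As ratios of TPM + 1, those of Pop4 and Rpp14 turned to -0.01 and -0.06, and that of Rpp30 to 0.22.

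**Figure D4:**
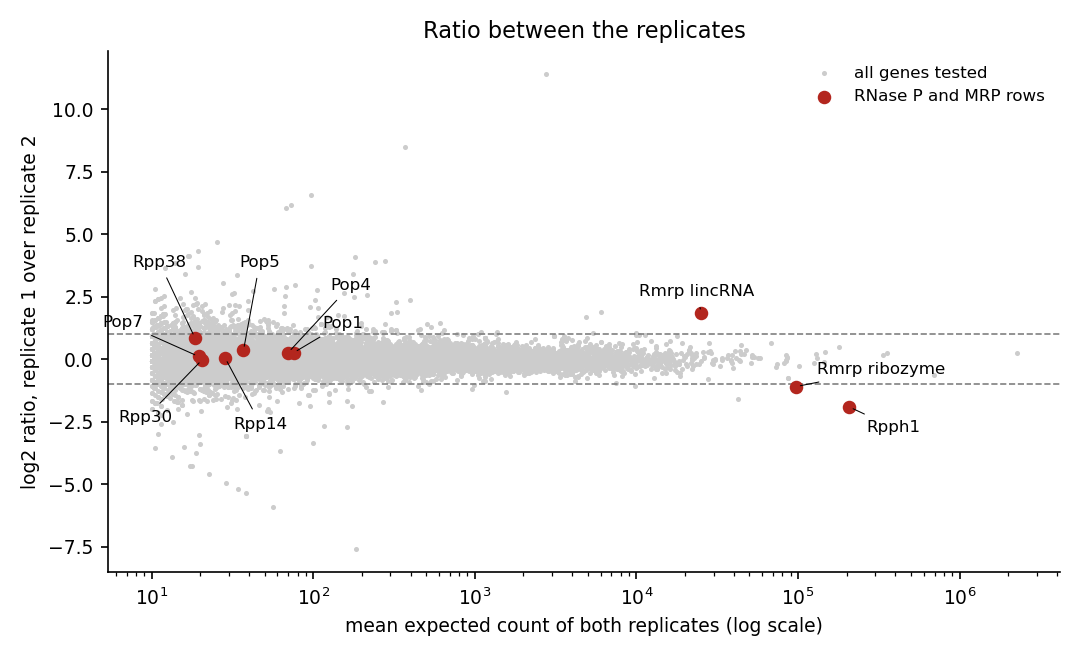
Log2 ratio of replicate 1 over replicate 2 against the mean expected count (log axis) for 14515 genes, with the member rows in red and dashed lines at 2-fold. The 3 RNA rows lie outside the lines at high counts, and the 7 protein rows tested lie inside them at low counts. Rmrp is drawn by row and not as a sum.

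Several members share bases with other genes. Of the 31-base words of Rpph1-201, 70.2% also occur in transcripts of Ccnb1ip1, which overlaps it on the same strand by 233 exon bases. Ccnb1ip1 had 0 counts in the alignment-based tables and 41.4 and 28.4 in the FASTQ-derived ones, against 97261 and 423202 for Rpph1. The start of Parp2 lies 74 bases away on the opposite strand, and Parp2 had 12.2 ± 3.56 TPM. Exons of Ccdc107 overlap both Rmrp rows on the opposite strand by 124 bases. Ccdc107 had 40 and 24 counts in replicates 1 and 2. Of the 31-base words of Rmrp-201, 39.0% occur in it in the opposite sense, so its reads and those of Rmrp cannot be told apart there without strand.

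Rpph1 and the Rmrp ribozyme row were each other's nearest gene by the level in both libraries. The Euclidean distance of log2(TPM + 1) over the 2 replicates was 0.58. Rn7s1 and Rn7s2 came next, at 1.36 from Rpph1 and 0.86 from the Rmrp ribozyme row. No gene lay within 0.1 of either RNA row, so being nearest does not mean being close. For the proteins such a likeness picks out little, since between 13 genes (for Rpp25) and 155 genes (for Pop7) lay within 0.1. Among the nearest to Pop1 were Tti2 and Tmem126b.

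Genes that work beside the members were described by the same measures. Of 3 other subunits, Rpp21 was detected with 3.69 and 3.27 TPM, by these values above every one of the 8 protein members. Rpp40 had 0.33 and 0.12 TPM. By FASTQ-derived TPM Rpp21 had 1.63 and 2.02, below Rpp30 in both replicates. Of the 3 proteins of mitochondrial RNase P, an enzyme without an RNA, 2 were detected. These were 1110008L16Rik, the RefSeq synonym of which is Prorp, with 2.32 ± 0.064 TPM, and Hsd17b10 with 1.58 ± 0.21 TPM. Trmt10c had 0.85 and 0.60 TPM. By FASTQ-derived TPM 1110008L16Rik had 1.61 and 1.42, but Hsd17b10 had 0.72 and 0.69, below the detection level.

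Among 10 other factors of tRNA ends and splicing, 8 were detected, with a median of 2.45 ± 0.57 TPM. Ssb, which binds the tail of new RNA polymerase III transcripts, was the highest at 16.2 ± 4.12 TPM. Tsen15, a subunit of the tRNA splicing endonuclease, was not detected at 0.94 ± 0.014 TPM. Of 10 factors for upstream RNA polymerase III promoters 8 were detected, with a median of 2.75 ± 0.86 TPM. They ran from 0.66 ± 0.11 TPM for Brf2 to 19.4 ± 3.54 TPM for Snapc3, a subunit of the complex that binds these promoters, and Snapc2 was not detected at 0.66 and 0.91 TPM. By FASTQ-derived TPM Brf2 had 1.52 and 1.30, above the detection level, and Snapc2 had 0.37 and 0.50.

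RNA polymerase III itself, with its repressor Maf1, was detected at 8 of 11 genes, the median being 3.62 ± 0.62 TPM. Polr3gl was the highest at 13.2 ± 1.75 TPM, and Polr3g, its paralog, was the lowest at 0.49 and 0.48 TPM. Polr3k had 1.07 TPM in replicate 1 but 0.98 TPM in replicate 2. By FASTQ-derived TPM it had 3.42 and 2.26, above the detection level in both. The 8 protein members had a lower median than these last 3 lists in both replicates, and no difference between lists was tested. No gene of these protein lists with enough counts was past 2-fold between the replicates.

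**Figure D5:**
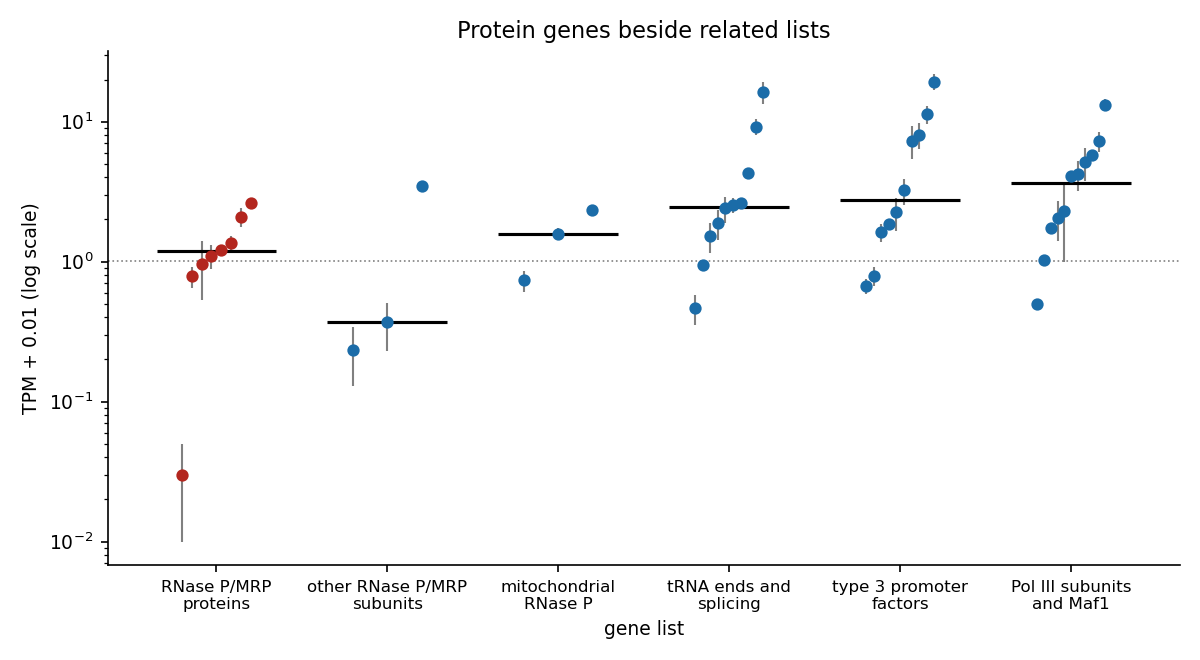
Mean TPM + 0.01 (log axis) of the 8 protein members, in red, and of the genes of 5 related lists, in blue, with grey lines over both replicates, black bars at each list's median and a dotted line at 1 TPM. The red points lie at or below 2.61 TPM, while Ssb, Snapc3 and Polr3gl lie above 13 TPM.

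Other RNA polymerase III RNAs were compared with Rpph1 and Rmrp row by row. Rn7sk, the scaffold of the complex that holds P-TEFb, had 203692 and 267174 TPM, above Rpph1 and Rmrp in both replicates. Rn7s1 and Rn7s2, copies of the signal recognition particle RNA with identical values, had 31208 and 46341 TPM each. Each row alone was below Rpph1 in both replicates. Rmrp was summed over its rows and these copies were not, so their joint level was not ranked. Rny1 and Rny3, the Y RNAs, had 0 counts in the alignment-based tables, where they have an effective length of 0, so no level can be read for them there. Vaultrc5, a vault RNA, had 0 and 2 counts.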

How the data were processed

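For either library the authors deposited gene-level and transcript-level estimates based on a transcriptome alignment, and transcript-level estimates derived from the FASTQ files. Per the file headers, the deposited alignment-based tables hold expected counts, which need not be whole, and TPM. The deposited FASTQ-derived tables hold estimated counts and TPM, summed here by gene. The authors' posterior mean TPM was used as an alternative. Per the labels that accompany the tables, the annotation was GENCODE M21 on mm10. For the aligner, the quantifiers and the strand setting, names and versions were not given in the sources used here.

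Rows without a gene (26345, with 0.672% of counts in replicate 1 and 0.196% in replicate 2) were left out of library sizes and ratios but remain in the deposited TPM total. Expected counts were rounded for ratios with edgeR 4.0.16 in R 4.3.3, with TMM scaling, a prior count of 2 and a mean count of at least 10. The script was tested on simulated data. Alternatives used DESeq2 1.42.0 size factors, other filters, other thresholds, FASTQ-derived values and 1 replicate left out. Retained intron and decay shares use GENCODE model types. Shared words are 31 bases long.

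The members and gene lists were chosen with earlier results of these data known. Every member is named. Of other lists, the highest, the lowest and those not detected may be named, besides overlapping or nearby genes and the 3 genes most like a member. Some genes that this rule names are not reported here.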

Additional observations from a re-analysis of the deposited data

How the results depend on the processing

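No paired analysis was possible because there is 1 group of 2 replicates. The gap between the RNAs and the proteins, 14.95 on the log2 scale, was 13.6 with FASTQ-derived TPM and 14.3 to 15.6 with 1 replicate left out. Of the 8 protein genes, 7 were detected at a TPM of at least 0.5, 0 at a TPM of at least 5, and 2 (Pop4 and Rpp30) by FASTQ-derived TPM. By posterior mean TPM at a level of 1, Rpp30 was detected besides Pop1, Pop4, Pop5 and Rpp14. With 1 replicate left out, 4 to 6 were detected. The share over all protein-coding genes was taken only for an alignment-based TPM of at least 1 in both replicates. These other counts therefore describe the members alone. The retained intron share of 19.7% was 10.9% by expected counts, 47.9% by FASTQ-derived TPM (25.9% over all protein-coding genes) and 28.9% over members with such a model (35.1% over all protein-coding genes with one). It was 14.6% to 24.9% with 1 replicate left out. Added after seeing the data, it was 18.6% without Rpp30, and 23.1% by FASTQ-derived TPM without Rpp30. The log2 ratio of Rpph1 over Rmrp was -0.77 to 0.47, and the ribozyme row share of Rmrp 64.4% to 93.4%, with 1 replicate left out. Rpph1 over Rmrp was 0.28 per kilobase of annotated length and 0.21 with the ribozyme row alone, within its SD. The 3 members past 2-fold became 2 with the ratio of TPM + 1, where the Rmrp ribozyme row had -0.99, and stayed 3 under 6 other settings. With the Rmrp rows summed, Rmrp had -0.51 and only Rpph1 stayed past 2-fold. The count past 2-fold needs both replicates. The cause of these shifts was not tested. With about 20 counts for Pop7 and Rpp30, depth limits every protein value.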
